A study of Mus musculus with 9 samples.

Results

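Adipocyte genes were followed in RNA from the environment of B16 tumours, a transplantable mouse melanoma. The members were 10 listed genes of fat cells, namely Lep, Adipoq, Fabp4, Plin1, Cidec, Lpl, Pparg, Cfd, Retn and Lipe. They were found by their symbol in the platform annotation, and every probe called present (detection p under 0.05) on 4 or more of the 9 arrays was taken. Of the 10 genes, 7 were measured, each by 1 probe, among 10096 named genes and 20190 detected probes. No named probe of Fabp4, Cfd or Retn was at hand, and these genes were not analysed here.

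The PC61 group held 4 arrays from mice given the CD25 antibody PC61, which serves to remove regulatory T cells. The PBS group held 5 arrays from mice given PBS. All mice were of strain C57/Bl6, aged 8 weeks and carried B16 tumours for 14 days, so both groups are tumour-bearing and neither shows tissue without a tumour. The labels give no dose, no schedule and no dissection margin, and beyond a replicate number nothing in them shows that each sample came from its own mouse. The p-values therefore reflect sample-to-sample spread only.

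White adipocytes store triglyceride in a single large droplet and release hormones such as leptin and adiponectin. The nuclear receptor PPAR gamma drives their differentiation together with C/EBP factors. Lipoprotein lipase takes fatty acids from circulating lipoproteins, droplet proteins guard the store, and hormone-sensitive lipase breaks it down. Mouse skin has a layer of such cells in the dermis and a sheet of muscle beneath it.

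Each array detected between 18572 and 20742 probes. The label of the tissue was checked against 11 melanocyte markers. Their mean log2 intensity on PC61 replicate 4 differed from the PBS mean by -4.58, and on the other PC61 arrays by -1.66 to -0.36. The array labelled PC61 replicate 4 also had the lowest mean correlation with its own group, 0.914 across probes. Results that rest on it are given with and without it. Muscle markers were higher on the PC61 arrays by means of 1.22 to 2.71 and keratinocyte markers by means of 0.8 to 2.79, on the same scale. The tissue is bulk, so fewer cells of a type and less RNA per cell cannot be told apart.

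Among the 7 measured members, Lep rose in PC61 samples and the other 6 did not pass the test, although all 7 had a higher mean there, as had 44.2% of all probes. The log2 fold changes ran from 0.74 for Plin1 to 1.67 for Lep, with a median of 1.01 on a log2 intensity scale, where 1 unit is a doubling. The median of all genes was -0.05. By limma with Benjamini-Hochberg adjustment over all detected probes, 1 of 7 members was called higher, which is 14.3%, against 10.8% of all probes. The share among members is thus close to the background, and the count is no result about the group. At an unadjusted p under 0.05 it was 7 of 7 members, against 16.9% of all probes, with adjusted p-values up to 0.11. Plin1, detected on 2 of 5 PBS arrays, entered the fit through the PC61 arrays. Its place in these counts is therefore no support for a rise. The PC61 and PBS arrays overlapped in all 7 members, where 8.49% of all probes had every PC61 array above every PBS array.

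Lep encodes leptin, the hormone by which fat tissue reports its stores to the brain. Its log2 intensity was 7.89, 7.82, 9.55 and 9.48 on PC61 replicates 1 to 4, against 7.04, 8, 7.1, 6.56 and 6.36 on PBS replicates 1 to 5. PC61 replicates 3 and 4 lay above all PBS arrays, and PC61 replicates 1 and 2 lay below PBS replicate 2. The mean was 8.69 ± 0.96 in PC61 samples (SD, n = 4) and 7.01 ± 0.64 in PBS samples (SD, n = 5). The log2 fold change was 1.67 ± 0.43 (SE), or 3.19-fold, with a limma adjusted p of 0.0237, and 18 of 20 pairs of a PC61 and a PBS array were higher in PC61. An exact two-sided permutation test over the 126 splits of the 9 arrays gave p = 0.0317, unadjusted. The Lep call was kept without PC61 replicate 4 at 1.41 (limma adjusted p = 0.0476). It was lost without PC61 replicate 3 (1.39, limma adjusted p = 0.0765), PBS replicate 4 (1.56, limma adjusted p = 0.0558) or PBS replicate 5 (1.51, limma adjusted p = 0.0594).

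Adipoq encodes adiponectin, a secreted protein made almost entirely by adipocytes. Array by array Adipoq stood at 11.11, 11.1, 12.2 and 10.68 on the PC61 arrays, against 9.8, 11.58, 9.96, 8.56 and 8.39 on the PBS arrays. A single PBS array, replicate 2, lay above 3 of the 4 PC61 arrays, and the other 4 PBS arrays lay below them all. The mean was 11.27 ± 0.65 in PC61 samples and 9.66 ± 1.29 in PBS samples (SD, n = 4 and n = 5). The log2 fold change of 1.62 ± 0.57 (SE) was near that of Lep in size, but with the wider PBS spread the limma adjusted p was 0.0636.

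**Figure D1:**
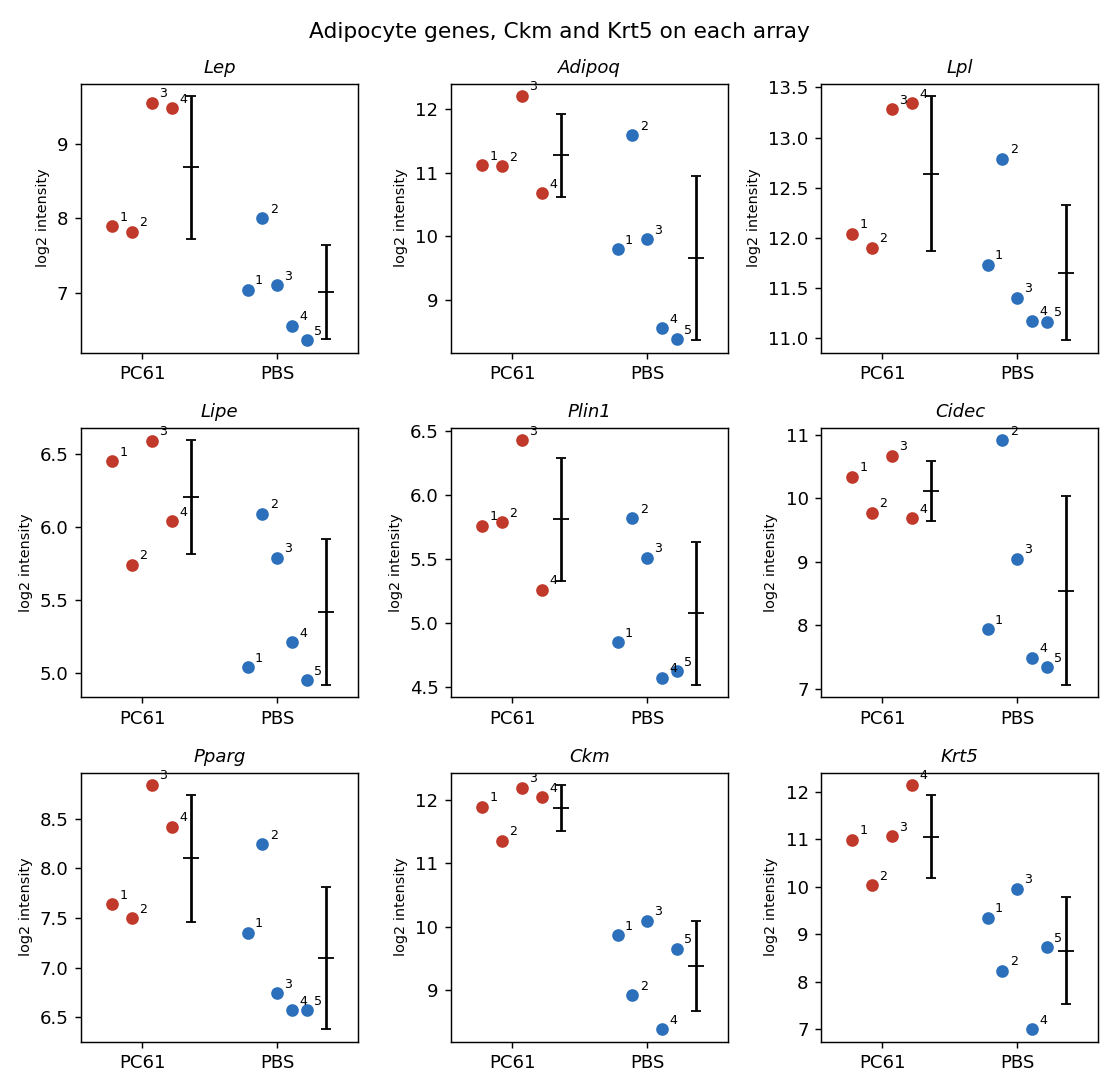
Log2 intensity (y axis) of the 7 measured adipocyte genes and of Ckm and Krt5 on each array, with PC61 arrays left of PBS arrays, points numbered by replicate and bars at the group means with SD. Groups overlap in each of the 7 adipocyte genes and do not overlap in Ckm or Krt5.

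Lpl encodes lipoprotein lipase, which frees fatty acids from circulating lipoproteins and is made by muscle and macrophages as well as fat. It was the brightest member, brighter than 97.5% of detected probes. On the log2 scale Lpl had 12.04, 11.9, 13.28 and 13.34 on the PC61 arrays, against 11.73, 12.79, 11.4, 11.17 and 11.16 on the PBS arrays. As with Lep, PC61 replicates 3 and 4 were the high pair, and PBS replicate 2 was the PBS array that reached into the PC61 range. The log2 fold change was 0.99 ± 0.4 (SE), with means of 12.64 ± 0.77 in PC61 samples and 11.65 ± 0.68 in PBS samples (SD, n = 4 and n = 5), and it did not pass the test (limma adjusted p = 0.098).

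Lipe encodes hormone-sensitive lipase, which breaks down stored lipid during fasting. Its log2 intensity was 6.45, 5.74, 6.59 and 6.04 on the PC61 arrays, against 5.04, 6.09, 5.79, 5.21 and 4.95 on the PBS arrays. Lipe had a log2 fold change of 0.79 ± 0.28 (SE), not past the test (limma adjusted p = 0.0623). PC61 replicates 2 and 4 lay below PBS replicate 2, and the other 4 PBS arrays reached no higher than 5.79. The probe was dim, brighter than 28.9% of detected probes, and the offset added after background correction shrinks the fold changes of such probes.

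Plin1 encodes perilipin, the coat protein of the adipocyte droplet. Plin1 had log2 intensities of 5.76, 5.79, 6.43 and 5.26 on the PC61 arrays, against 4.85, 5.82, 5.51, 4.57 and 4.62 on the PBS arrays. PC61 replicate 3 was the highest array, PC61 replicate 4 lay below 2 PBS arrays, and the groups overlapped. Plin1 was the dimmest member and was detected on 4 of 4 PC61 arrays and 2 of 5 PBS arrays. A log2 fold change of 0.74 ± 0.31 (SE) did not pass the test (limma adjusted p = 0.11), and it is also compressed by the offset.

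Cidec encodes a protein that fuses small droplets into large ones. The Cidec probe had log2 intensities of 10.34, 9.77, 10.67 and 9.69 on the PC61 arrays, against 7.94, 10.91, 9.05, 7.49 and 7.34 on the PBS arrays. PBS replicate 2 was the highest of all 9 arrays, while the other 4 PBS arrays lay below all PC61 arrays. The mean was 10.12 ± 0.47 in PC61 samples and 8.55 ± 1.48 in PBS samples (SD, n = 4 and n = 5). The log2 fold change of 1.57 ± 0.62 (SE) did not pass the test (limma adjusted p = 0.0909).

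Pparg encodes the nuclear receptor that is the master regulator of adipocyte differentiation, and macrophages and sebocytes also express it. Its log2 intensity was 7.64, 7.5, 8.84 and 8.42 on the PC61 arrays, against 7.35, 8.24, 6.74, 6.57 and 6.57 on the PBS arrays. The PC61 arrays again formed a high pair, replicates 3 and 4, and a pair that lay below PBS replicate 2. Pparg had a log2 fold change of 1.01 ± 0.38 (SE), not past the test (limma adjusted p = 0.0807). For the 6 members other than Lep the unadjusted exact permutation p ran from 0.0556 for Pparg to 0.103 for Plin1.

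The authors' deposited table gave a ratio of PC61 to PBS of 3.36 for Lep, with an adjusted p of 0.0235. In the authors' deposited table the ratios of the other 6 members ran from 1.64 for Plin1 to 2.36 for Adipoq, with adjusted p-values of 0.0604 to 0.0995.

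Promoters of the members were read from RefSeq (GRCm38.p6) over the 250 bases before each annotated start, and 6 of the 7 measured members had at least 1, with 10 promoters in all. They are shown because C/EBP factors and PPAR gamma act together in adipocytes and because Cebpb and Cebpd, described further on, changed in opposite directions. A C/EBP-type motif, TTGCNNAA on either strand, was found in 4 of the 10 promoters, of Lep, Plin1, Cidec and Pparg, and in 9.56% of 32851 promoters. In the 3 windows below, capitals mark this motif and, in Lep, a GC box (GGGCGG, in 32.7% of promoters).
Lep promoter, chr6:29059971-29060220, plus strand: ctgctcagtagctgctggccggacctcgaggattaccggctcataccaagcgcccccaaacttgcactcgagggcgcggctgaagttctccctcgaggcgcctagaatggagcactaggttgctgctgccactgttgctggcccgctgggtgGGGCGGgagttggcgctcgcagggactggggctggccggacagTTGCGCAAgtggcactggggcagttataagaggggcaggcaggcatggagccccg
Plin1 promoter, chr7:79732777-79733026, minus strand: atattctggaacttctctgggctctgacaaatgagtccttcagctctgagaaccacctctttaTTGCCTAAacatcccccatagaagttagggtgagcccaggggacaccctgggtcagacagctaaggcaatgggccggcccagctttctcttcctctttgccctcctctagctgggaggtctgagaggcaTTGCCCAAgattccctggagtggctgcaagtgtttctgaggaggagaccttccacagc
Cidec second promoter, chr6:113434765-113435014, minus strand: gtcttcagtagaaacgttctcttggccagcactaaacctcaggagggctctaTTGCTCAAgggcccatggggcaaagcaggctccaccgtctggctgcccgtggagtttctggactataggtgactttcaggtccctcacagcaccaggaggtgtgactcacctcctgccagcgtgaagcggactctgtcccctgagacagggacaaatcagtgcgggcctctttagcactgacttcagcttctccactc

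Counted from the start, the motif lay at -55 to -48 in Lep and at -187 to -180 and -58 to -51 in Plin1. In Cidec it lay at -198 to -191. Of the other motifs searched on both strands, the GC box was in 4 of the 10 promoters. The nuclear receptor half-site AGGTCA was in 2 (14.0% of all promoters), TATAAA in 1 (12.4%) and CACGTG in 1, that of Lipe (6.02%). The Adipoq window held none of the 5 motifs, and that says only that these letters are not in it. Whether any of these motifs has a part in the changes of the members was not tested.

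Read array by array, the 7 members split the PBS group in the same way. PBS replicate 2 was the highest PBS array in 7 of 7 members, above the mean of the other 4 PBS arrays by 2.96 for Cidec, 2.4 for Adipoq, 1.43 for Pparg, 1.42 for Lpl, 1.24 for Lep, 0.94 for Plin1 and 0.84 for Lipe. On that array Ckm lay 0.59 and Krt5 lay 0.53 below the mean of the other PBS arrays, so the muscle and keratin genes did not share this elevation. PBS replicate 5 was the lowest of the PBS arrays in 5 members and PBS replicate 4 in 2.

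The median member stood 0.88, 0.71, 1.75 and 1.14 above its PBS mean on PC61 replicates 1 to 4. On PBS replicates 1 to 5 it stood at 0.03, 1.14, 0.31, -0.51 and -0.52 around that mean. PBS replicate 2 thus had the same median as PC61 replicate 4 and exceeded PC61 replicates 1 and 2. PC61 replicate 3 was the highest of the 9 arrays in 5 of 7 members.

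**Figure D2:**
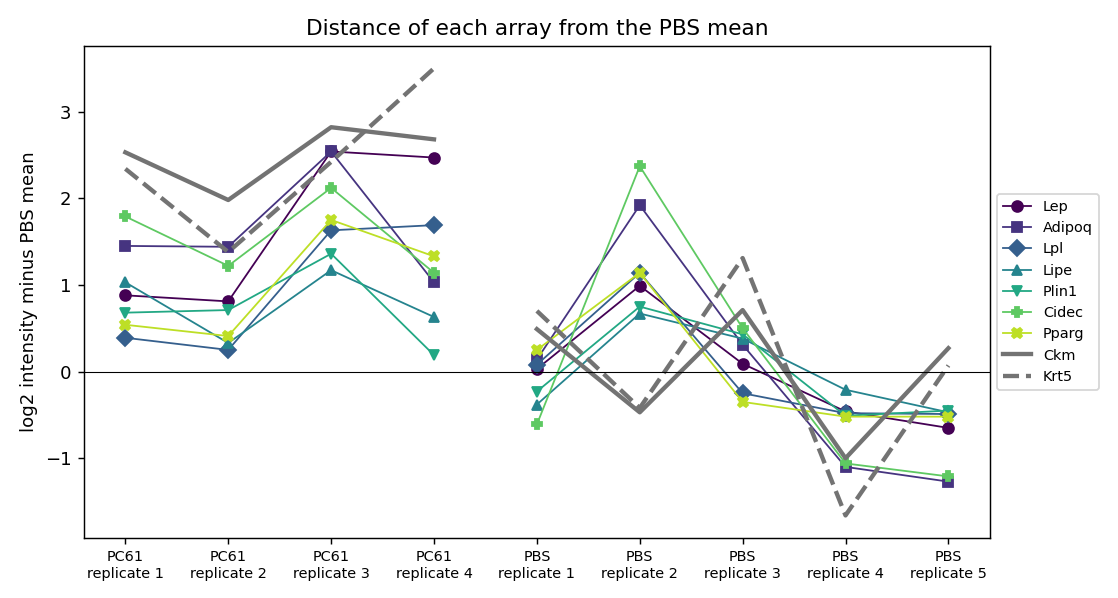
Difference from the PBS mean in log2 intensity (y axis) on each array, PC61 arrays left and PBS arrays right, with thin marked lines for the adipocyte genes and grey lines for Ckm and Krt5; lines only join the points of a gene, since replicates have no order. PBS replicate 2 is the PBS peak of all 7 adipocyte genes but not of Ckm or Krt5.

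On PC61 replicate 4, the array with the fewest melanocyte transcripts, the members parted. Against the mean of the other PC61 arrays, Lep was 1.06 higher, Lpl 0.93 higher and Pparg 0.43 higher, while Adipoq stood at -0.78, Plin1 at -0.73, Cidec at -0.57 and Lipe at -0.22. It was the lowest PC61 array for Adipoq, Plin1 and Cidec. Krt5 was 1.46 higher there and Ckm 0.24 higher.

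Leaving out PBS replicate 2 raised the count of called members to 6 of 7, against 7.11% of all probes called higher in the same fit. The log2 fold changes without it were 2.16 for Cidec (limma adjusted p = 0.0303), 2.1 for Adipoq (limma adjusted p = 0.0309) and 1.92 for Lep (limma adjusted p = 0.0309). Pparg stood at 1.29, Lpl at 1.27 and Lipe at 0.96, with limma adjusted p-values of 0.0359 to 0.0432, and Plin1 missed the threshold (limma adjusted p = 0.0606). No label singles out this array, and the fit without it was made after its values were seen.

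Leaving out other arrays moved the count less often upwards. Without PC61 replicate 2 it was 4 (Lep, Lipe, Lpl and Pparg), against 14.3% of all probes. Without PC61 replicate 3, PBS replicate 4 or PBS replicate 5 it was 0, against 3.23%, 6.2% and 5.33% of all probes. Without PC61 replicate 4 it was 1, against 7.85%. The median log2 fold change of the members lay between 0.78 and 1.29 over the 9 fits that left out 1 array each.

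Ckm, the creatine kinase of muscle, and Krt5, a keratin of basal keratinocytes, were set beside the members as references. Ckm had log2 intensities of 11.9, 11.36, 12.2 and 12.05 on the PC61 arrays, against 9.86, 8.91, 10.09, 8.37 and 9.65 on the PBS arrays. Krt5 had 10.99, 10.03, 11.07 and 12.15 on the PC61 arrays, against 9.35, 8.23, 9.96, 6.99 and 8.72 on the PBS arrays. The groups did not overlap in either gene. The log2 fold changes were 2.5 ± 0.34 for Ckm (SE, limma adjusted p = 0.0124) and 2.41 ± 0.55 for Krt5 (SE, limma adjusted p = 0.0168). Ckm was called in 9 of 9 fits that left out 1 array, and Krt5 in all but that without PC61 replicate 3 (limma adjusted p = 0.0519).

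**Figure D3:**
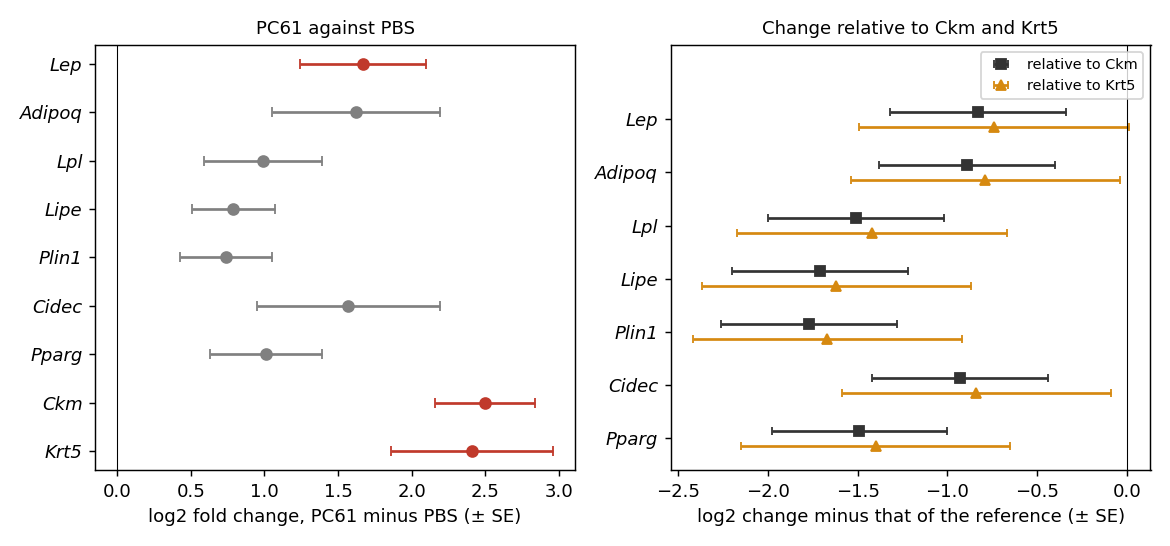
Log2 fold change of PC61 over PBS (x axis, left panel) for each measured adipocyte gene and for Ckm and Krt5, with red points past the test, and the change of each adipocyte gene minus that of Ckm (squares) or Krt5 (triangles) in the right panel; bars are ± SE from limma. The 7 adipocyte genes lie between 0.74 and 1.67, below Ckm at 2.5 and Krt5 at 2.41.

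The change of each member relative to Ckm was the PC61 minus PBS difference of the member's log2 intensity less that of Ckm on the same array. Ckm had a larger log2 fold change than 99.9% of probes, so this reference puts nearly every probe below 0. The relative change was below 0 for all 7 members, with a median of -1.49. It passed the test for Lpl (-1.51, limma adjusted p = 0.00233), Pparg (-1.49, limma adjusted p = 0.0026), Lipe (-1.71, limma adjusted p = 0.00056) and Plin1 (-1.77, limma adjusted p = 0.00038). In these 4 members the difference from Ckm was lower on every PC61 array than on every PBS array. Ckm itself did not overlap between the groups, and the share of all probes separated this way was not counted. The separation is therefore no result about these members. The gap was narrow for Pparg, with a highest PC61 value of -1.07 and a lowest PBS value of -1.06 around the PBS mean. For Lpl these were -0.99 and -0.96, for Lipe -1.5 and -0.86, and for Plin1 -1.27 and -0.72. Plin1 entered the fit through the PC61 arrays, since it was detected on 2 of 5 PBS arrays, and its PBS values near background compress its fold change. Its difference from Ckm is therefore not a measured size, and that of Lipe, a dim probe, is open to the same compression. The count was 4 of 7 members, against 96.1% of 20189 probes, and 3 of 6 among members detected on all 9 arrays, which leaves out Plin1.

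The remaining members missed the threshold relative to Ckm. The differences were -0.93 for Cidec (95% interval -1.9 to 0.03), -0.89 for Adipoq (-1.85 to 0.08) and -0.83 for Lep (-1.79 to 0.14). These intervals hold both no difference from Ckm and a change smaller by more than 1 log2 unit. They rest on a standard error that limma shared among probes, and they are too narrow for these members. Without PBS replicate 2 the differences were -0.22 for Cidec, -0.29 for Adipoq and -0.46 for Lep. Cidec passed without PBS replicate 1 (-1.21, limma adjusted p = 0.0242), PBS replicate 4 (-0.95, limma adjusted p = 0.0334) or PBS replicate 5 (-1.3, limma adjusted p = 0.0185). Adipoq passed without PBS replicate 3 (-0.99, limma adjusted p = 0.0495), PBS replicate 4 (-0.91, limma adjusted p = 0.0404) or PBS replicate 5 (-1.27, limma adjusted p = 0.0213). Over the 9 fits without 1 array the size ran from -1.3 to -0.22 for Cidec, -1.27 to -0.29 for Adipoq and -1.06 to -0.46 for Lep. It was nearest to 0 without PBS replicate 2. The passes at -0.95, -0.99 and -0.91 had sizes near those of the full fit, and Lep passed in 0 of the 9 fits. Lep, Adipoq and Cidec are the members with the largest fold changes.

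Subtracting 1 gene puts that gene's own noise into every probe, so limma gave all probes nearly the same standard error (0.49 with Ckm, 0.75 with Krt5). Its p-values are too small here, and its intervals for Cidec, Adipoq and Lep relative to Ckm are too narrow. Exact two-sided permutation tests were therefore added after the data were seen, unadjusted over the 14 relative tests. Relative to Ckm the exact test gave p = 0.0317 each for Lpl and Pparg, 0.0159 for Lipe and 0.00794, the smallest the 126 splits allow, for Plin1 with its compressed values. For Lep, Adipoq and Cidec the exact permutation p-values were 0.222, 0.317 and 0.373. The groups did not overlap in Ckm itself, and the share of all probes with exact p-values this small was not counted. The small exact p-values relative to Ckm are therefore no result about these members.

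Relative to Krt5 the 7 differences were again below 0, from -1.67 for Plin1 to -0.74 for Lep, and the groups overlapped in all of them. Krt5 had a larger log2 fold change than 99.8% of probes, so nearly every probe lies below 0 here too. Without PBS replicate 2 Cidec stood at -0.14, Adipoq at -0.21 and Lep at -0.38. By limma, Lipe (-1.62, adjusted p = 0.0347) and Plin1 (-1.67, adjusted p = 0.0294) passed, 2 of 7 members, against 90.2% of all probes. The limit on these dim probes holds here too, and among the 6 members detected on all 9 arrays the count was 1. The exact permutation p was 0.0476 for Lipe and 0.0714 for Plin1. Krt5 did not overlap between the groups either, and the share of all probes with such exact p-values was not counted. The Krt5-relative count moved with single arrays. Leaving out PC61 replicate 1, PC61 replicate 4 or PBS replicate 2 gave 0, PC61 replicate 3 or PBS replicate 4 gave 1, and PBS replicate 3 gave 4. The share of all probes that passed was not counted in these fits. Krt5 relative to Ckm differed by -0.09 (limma adjusted p = 0.851), with a 95% interval of -1.06 to 0.87.

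Genes that handle lipid droplets and lipolysis were next, from lists of the wider adipocyte programme in which called genes are counted over 1 probe a gene. Among all 10096 genes, 14.6% were called higher and 10.3% lower, and these shares are the background for the count of every list below. Over the 9 fits that left out 1 array, 3.23% to 14.3% of all probes were called higher. That range is the background for list counts of risen genes in those fits, and the share called lower is not given for them. Of the 18 listed droplet genes, 14 were measured, 6 rose and 2 fell, with a median log2 fold change of 0.64. Fitm2, an endoplasmic reticulum protein that helps droplets to form, rose to 9.14 ± 0.09 in PC61 samples, against 8.26 ± 0.19 in PBS samples (SD, limma adjusted p = 0.0125), with no overlap of the groups. The 2 that fell were Plin3, a droplet coat protein found in most cell types, at 9.07 ± 0.39 in PC61 samples and 10.57 ± 0.4 in PBS samples (SD, limma adjusted p = 0.0125), and Hilpda, a hypoxia-inducible inhibitor of lipolysis (log2 fold change -1.07 ± 0.22, SE, limma adjusted p = 0.0141). The count of 6 fell to 3 without PC61 replicate 1, PC61 replicate 4, PBS replicate 1 or PBS replicate 4 and to 1 without PC61 replicate 3 or PBS replicate 5, while the count of 2 stayed at 2 in all 9 such fits. The highest count of risen droplet genes in these fits was 8.

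Of the 27 genes of fatty acid uptake and triglyceride synthesis, 21 were measured, 3 rose and 1 fell (median 0.54). With 14.6% of all genes called higher and 10.3% lower, these counts are no result about the list. Dgat2 carries out the last step of triglyceride synthesis. Its log2 intensity was 11.93, 11.76, 12.41 and 12.22 on the PC61 arrays, against 10.04, 11.46, 10.65, 8.23 and 9.27 on the PBS arrays. As in the members, PBS replicate 2 was the highest PBS array, but here the groups did not overlap, and the change was 4.45-fold (limma adjusted p = 0.0188). Slc27a4, a fatty acid transport protein, rose by 0.94 ± 0.23 on the log2 scale (SE, limma adjusted p = 0.0199). Scd2, a fatty acid desaturase, fell by 1.37 ± 0.35 (SE, limma adjusted p = 0.0236). The calls of Dgat2, Slc27a4 and Scd2 were lost without PC61 replicate 3 or PBS replicate 5, with limma adjusted p-values of 0.0502 to 0.0767, and that of Scd2 also without PBS replicate 2. The count of 3 was 0 without PC61 replicate 3 or PBS replicate 5 and 7 without PC61 replicate 2. That of 1 fell to 0 without PC61 replicate 3, PBS replicate 2 or PBS replicate 5 and was 2 without PC61 replicate 2 or PBS replicate 1.

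Among the adipogenic transcription factors 11 of 15 were measured, 2 rose and 2 fell (median 0.41). Cebpb, an early C/EBP factor of adipogenesis that also acts in macrophages and keratinocytes, had log2 intensities of 12.93, 12.51, 12.97 and 13.39 on the PC61 arrays, against 11.73, 11.32, 11.75, 11.35 and 12.05 on the PBS arrays. All PC61 arrays lay above all PBS arrays, by 2.47-fold in the mean (limma adjusted p = 0.0125), and the call held in 9 of 9 fits without 1 array. Cebpd, its early partner in adipogenesis, had 7.79, 8.26, 7.83 and 7.69 on the PC61 arrays, against 8.88, 8.94, 8.46, 9.06 and 9.07 on the PBS arrays, and so fell by 0.99 ± 0.19 (SE, limma adjusted p = 0.0132). Ppargc1b, a coactivator of mitochondrial genes, fell by 1.1 ± 0.27 (SE, limma adjusted p = 0.0199), a call lost without PC61 replicate 1 or PBS replicate 5. Cebpa, the later C/EBP factor of adipocytes, had a log2 fold change of 0.32 ± 0.45 (SE, limma adjusted p = 0.656), and was looked up after its values were seen. Without PC61 replicate 3 or PBS replicate 5 the count of 2 that rose was 1, and without PC61 replicate 1 or PBS replicate 5 the count of 2 that fell was 1. The highest count that rose in the fits without 1 array was 3.

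Of 15 other secreted products of fat tissue, 9 were measured, 0 rose and 2 fell (median 0.41). Nampt, the enzyme of NAD synthesis that is also secreted by fat, fell by 1.51 ± 0.33 (SE, limma adjusted p = 0.0155). Sparcl1, a matrix protein, fell by 1.31 ± 0.39 (SE, limma adjusted p = 0.0383), and the Sparcl1 call was lost without PC61 replicate 1, 3 or 4 or PBS replicate 2, 4 or 5, so that the count of 2 became 1. Retnla, a resistin-like protein made by fat and by macrophages, had a log2 fold change of 2 ± 0.77 that did not pass (SE, limma adjusted p = 0.0853). Without PBS replicate 1 Retnla was called higher (limma adjusted p = 0.0376), and at an unadjusted limma p under 0.05 the list had 2 genes higher and 2 lower.

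Of 15 receptors for adipokines, insulin and lipolytic signals, 7 were measured and 2 rose. Cdh13, a surface protein that binds adiponectin, rose by 1.07 ± 0.26 (SE, limma adjusted p = 0.0184). Npr3, the clearance receptor of natriuretic peptides, rose by 0.92 ± 0.25 (SE, limma adjusted p = 0.0266), while Irs2, an adaptor of the insulin receptor, at 0.9 ± 0.31 (SE, limma adjusted p = 0.0622) did not pass. The adiponectin receptors Adipor1 and Adipor2, picked as the receptors of a member, had log2 fold changes of 0.19 ± 0.19 and 0.27 ± 0.19 (SE), neither past the test (limma adjusted p = 0.494 and 0.342). Npr3 lost its call without PC61 replicate 3, PC61 replicate 4, PBS replicate 1 or PBS replicate 5, and Cdh13 without PC61 replicate 3. The receptor count fell to 1 without PC61 replicate 4, PBS replicate 1 or PBS replicate 5 and to 0 without PC61 replicate 3. Its highest value in the fits without 1 array was 3.

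Of 15 genes of brown and beige adipocytes, 9 were measured, 4 rose and 1 fell. Elovl3, a fatty acid elongase of brown fat and of sebaceous glands, rose 3.54-fold (limma adjusted p = 0.0124). Tbx1, a transcription factor used as a beige fat marker and expressed in muscle precursors, rose 4.7-fold (limma adjusted p = 0.0125). Cpt1b, the muscle and brown fat form of the carnitine transferase, rose by 1.02 ± 0.24 on the log2 scale (SE, limma adjusted p = 0.0173). Prdm16, a coregulator of brown fat, was the one that fell, by 2.6 ± 0.67 (SE, limma adjusted p = 0.023); it was named after its values were seen. Without PC61 replicate 4 its log2 fold change was -1.76 (limma adjusted p = 0.0199), and the fits without 1 array ran from -3.13 to -1.76. The calls of Cpt1b and Prdm16 were lost without PC61 replicate 3, and that of Prdm16 also without PBS replicate 4 or PBS replicate 5. The count of 4 was 2 without PC61 replicate 3, and that of 1 was 3 without PC61 replicate 2 and 0 without PC61 replicate 3, PBS replicate 4 or PBS replicate 5. Ucp1 was not analysed here.

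Of 11 genes of adipose progenitors, 10 were measured and 6 rose (median 0.88). Among those 6, Fgf10 and Cd55 were detected on 4 of 4 PC61 arrays and 3 of 5 PBS arrays. They thus entered the fit only with the PC61 arrays, and they were looked up after their values were seen. Dpp4, a surface peptidase of early progenitors that other fibroblasts and T cells also carry, rose 3.49-fold (limma adjusted p = 0.0138). Icam1, an adhesion molecule, rose by 0.76 ± 0.17 (SE, limma adjusted p = 0.0159), and Thy1, a surface protein of fibroblasts and T cells, rose by 0.78 ± 0.21 (SE, limma adjusted p = 0.0259). The calls of Icam1 and Thy1 were lost without PC61 replicate 3, and that of Thy1 also without PBS replicate 4 or PBS replicate 5. The count of 6 fell to 3 without PC61 replicate 1, PC61 replicate 4 or PBS replicate 3, to 2 without PBS replicate 4 or PBS replicate 5 and to 1 without PC61 replicate 3. Its highest value in the fits without 1 array was 8.

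**Figure D4:**
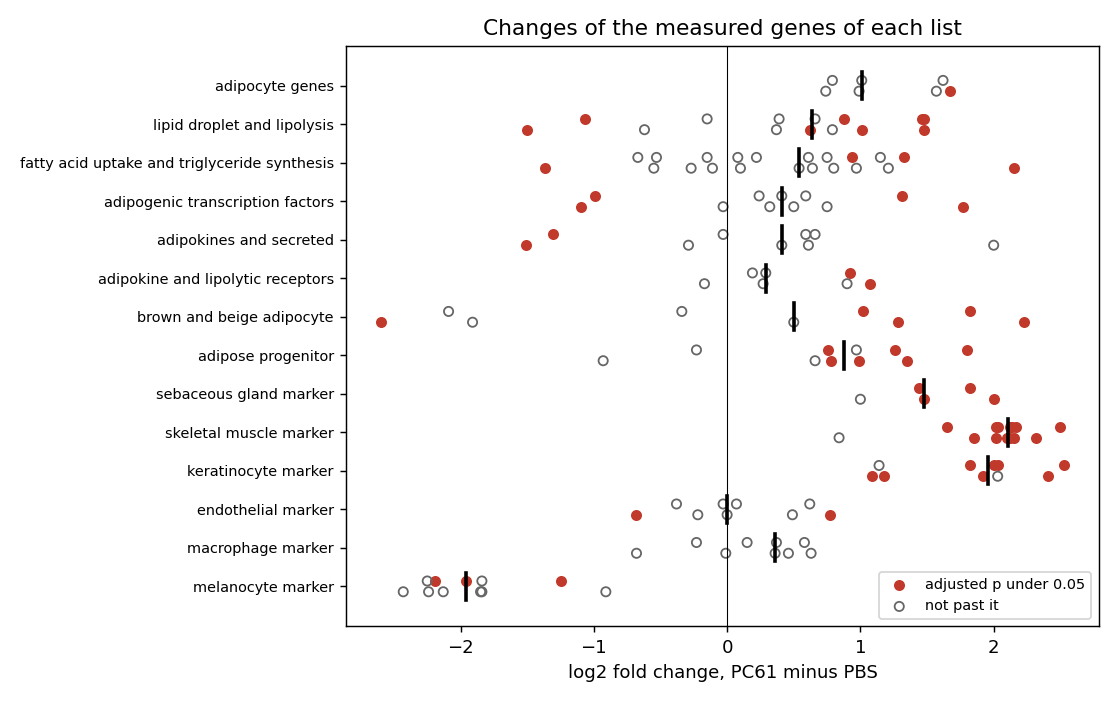
Log2 fold change of PC61 over PBS (x axis) of each measured gene in the listed groups, with called genes filled and a bar at each list's median. The median of the 7 adipocyte genes is 1.01, between that of muscle markers at 2.11 and that of endothelial markers at 0.

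Markers of other cell types that express some of the members moved with the groups as follows, and their part in the members' changes was not tested. Of 9 measured macrophage markers 0 were called in either direction, with the smallest adjusted p of the list at Csf1r, the receptor of macrophage colony-stimulating factor (0.46 ± 0.22, SE, limma adjusted p = 0.159), and Mertk and Fcgr1 did not pass either. The count was 0 at an unadjusted limma p under 0.05 too, and without PC61 replicate 4 the list had 1 gene called higher. Their summed linear intensity was 6887 to 16756 on PC61 arrays and 7954 to 10805 on PBS arrays. Of 9 endothelial markers, Tek rose by 0.77 ± 0.25 (SE, limma adjusted p = 0.0499) and Emcn fell by 0.68 ± 0.22 (SE, limma adjusted p = 0.0478), and Cldn5 did not pass. With 14.6% of all genes called higher and 10.3% lower, 1 call in each direction is no result about this list. Tek stayed called in 1 and Emcn in 2 of the 9 fits without 1 array. Their sum was 1772 to 2765 on PC61 arrays and 1989 to 2917 on PBS arrays.

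Sebaceous gland markers, which include lipid genes such as Elovl3 and Cidea, had 5 of 10 measured and 4 that rose. Krt79, a keratin of the sebaceous duct, rose by 2 ± 0.53 (SE, limma adjusted p = 0.0246), and Cidea, a droplet protein of sebocytes and brown fat, by 1.48 ± 0.42 (SE, limma adjusted p = 0.0304). Both calls were lost without PC61 replicate 3 or PBS replicate 5, and that of Cidea also without PC61 replicate 1 or PC61 replicate 4. Their sum was 3028 to 11586 on PC61 arrays and 464 to 2638 on PBS arrays. The count of 4 fell to 2 without PC61 replicate 1 or PC61 replicate 4 and to 1 without PC61 replicate 3 or PBS replicate 5. Its highest value in the fits without 1 array was 5.

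Of 14 measured muscle markers 13 rose, led by Ryr1, Ckm and Pvalb, with sums of 35214 to 84209 on PC61 arrays and 7931 to 20409 on PBS arrays. Of 10 keratinocyte markers 8 rose, led by Sfn, Krt5 and Lgals7, with sums of 55788 to 143781 on PC61 arrays and 15539 to 59038 on PBS arrays. Leaving out PC61 replicate 3 took the keratinocyte count to 1 and PBS replicate 5 to 2, against 3.23% and 5.33% of all probes called higher. Leaving out PC61 replicate 1 or 4 or PBS replicate 2 or 4 took it to 3. Over the 9 fits without 1 array the keratinocyte count ran from 1 to 10. Of 11 melanocyte markers, Mitf, Tyr and Mc1r fell, with sums of 3864 to 75944 on PC61 arrays and 65687 to 101447 on PBS arrays. The melanocyte count was 0 without PC61 replicate 3, 6 without PC61 replicate 4 and 10 without PC61 replicate 2. The summed intensity of the 7 adipocyte genes was 7411 to 17650 on PC61 arrays and 3022 to 12736 on PBS arrays. In this linear sum the brightest member, Lpl, weighs most, and muscle and macrophages make it too.

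The genes whose pattern was most like that of Adipoq were ranked by Pearson's r over the 9 arrays after each group's mean was removed, among 10095 other genes. These arrays share their tissue make-up and normalization, and r is a description. The 8 nearest genes outside the members were Cdo1 (r = 0.974), Thrsp (0.965), Sult1a1 (0.965), Cyp2e1 (0.962), Ffar4 (0.959), Adig (0.945), Srxn1 (0.944) and Krt18 (0.943). Cdo1 encodes cysteine dioxygenase, Thrsp a regulator of lipogenesis, Ffar4 a receptor of long-chain fatty acids and Adig adipogenin, a small membrane protein of adipocytes. Cyp2e1 and Sult1a1 are enzymes of xenobiotic metabolism, Srxn1 reduces oxidised peroxiredoxins and Krt18 is a keratin of simple epithelia. An r of at least 0.9 was reached by 40 genes, which is 0.396%.

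Among the members, Cidec (r = 0.938, rank 11) and Plin1 (0.913, rank 31) followed Adipoq most closely. Pparg (0.796), Lipe (0.791), Lpl (0.687) and Lep (0.66) followed it less, while Krt5 (0.128) and Ckm (0.0955) stood far down the ranking. Without the 2 arrays farthest from the median of Adipoq, PBS replicates 2 and 5, r stayed at 0.811 for Cidec, 0.896 for Plin1 and 0.955 for Cdo1. It dropped to 0.554 for Pparg, 0.548 for Lipe, 0.408 for Lep and 0.358 for Lpl, and was 0.45 for Krt5 and 0.724 for Ckm. The likeness of Pparg, Lipe, Lep and Lpl to Adipoq within groups thus rested in large part on those arrays.

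None of the 8 nearest genes passed the test between groups, at limma adjusted p-values of 0.109 for Sult1a1 to 0.922 for Srxn1. Cdo1 had a log2 fold change of 1.69 ± 0.73 (SE, limma adjusted p = 0.12) and Cyp2e1 of 1.88 ± 0.83 (SE, limma adjusted p = 0.128). Without PBS replicate 2, as for the members, Cdo1 (2.36, limma adjusted p = 0.0309), Cyp2e1 (2.62, limma adjusted p = 0.0316) and Sult1a1 (1.78, limma adjusted p = 0.0309) were called higher.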

How the data were processed

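RNA of 9 samples, 4 PC61 and 5 PBS, was measured on single-colour Illumina arrays. Per the labels' protocols, RNA was extracted with Trizol and RNeasy and biotinylated cRNA was made. The deposited raw table gave a linear intensity and a detection p-value for each of 45273 probes, per the file headers. The authors' second table held normalized intensities of 17382 probes with a ratio, a test score, a p-value and an adjusted p-value per the file headers. The sources used here do not give the scanner software or the authors' test. Groups came from the sample labels.

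A detection p outside 0 to 1 removed 3 probes. Background was corrected by normexp with the detection p-values and an offset of 16, and log2 values were quantile normalized (limma 3.58.1, R 4.3.3). Probes detected at p under 0.05 on 4 or more arrays were tested with lmFit and eBayes, two-sided, with Benjamini-Hochberg adjustment, and called at an adjusted p under 0.05. The same fit was tested on simulated data. The number of arrays limits the precision. For changes relative to Ckm or Krt5, its log2 intensity was subtracted on each array and the fit repeated. Gene symbols came from the platform annotation and RefSeq.

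The members and lists were chosen with earlier results of these data known. Named genes were the members, Ckm and Krt5, the 3 genes of each list with the smallest unadjusted p, and the 8 genes nearest to Adipoq. Other genes are said to be chosen later. Alternatives were other normalizations, offsets, filters and weights, a replicate block and leaving out arrays.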

Additional observations from a re-analysis of the deposited data

How the results depend on the processing

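The number of members called higher, 1 of 7 (Lep), was also 1 with cyclic loess, 75th percentile scaling, an offset of 50, the authors' normalized intensities, 1 probe a gene and detection on all 9 arrays. It was 5 with array weights, against 14.9% of all probes called higher in that fit. With no filter on detection it was 0, against 1.95% of all probes there and 10.8% in the main fit. Calls were thus fewer among all probes too, and this 0 is no result about the members. A fit that dropped both arrays numbered 4, of PC61 and of PBS, was chosen after seeing the data. The count in it was 0, against 5.88% of all probes. Leaving out 1 array at a time gave 0 to 6. Array weights, in which PC61 replicate 4 had a weight of 0.242 and PC61 replicate 1 a weight of 3.74, called Lep, Adipoq, Cidec, Lipe and Plin1 but not Lpl (0.55, limma adjusted p = 0.231) or Pparg (0.66, limma adjusted p = 0.149). Plin1 is counted there although it entered the fit through the PC61 arrays. No member changed sign under these settings. The number of members that changed less than Ckm, 4, was 7 with an offset of 50, 6 with no filter on detection and 6 with array weights. It was 5 without both arrays numbered 4 and 4 to 6 without 1 array. The number that changed less than Krt5, 2, was 0 with 75th percentile scaling, 1 with detection on all 9 arrays, 4 with array weights, 0 with the mean of the keratinocyte markers in place of Krt5, 0 without both arrays numbered 4 and 0 to 4 without 1 array. The cause of these moves was not tested. In the main fit 96.1% of all probes passed relative to Ckm and 90.2% relative to Krt5. These shares were not counted under the other settings, so the relative counts are no result about the members.

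With the replicate number as a block, 0 members were called (Lep at 1.51, limma adjusted p = 0.135), 7 changed less than Ckm and 0 changed less than Krt5. The shares of all probes that changed less than Ckm or Krt5 were not counted with this block. Under that block 0 of all probes were called higher, and all 31 called genes among the 45 named outside the members lost their call. Same-numbered arrays did not deviate together (correlations of -0.191, 0.0363, -0.00746 and -0.287). These values show no pairing by number but cannot exclude one, and the labels do not say what the numbers mean.

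Plin1 and Lipe are dim probes, and their fold changes are shrunk by the offset. Fold changes of members rest on 1 probe each, and 9 arrays limit the precision.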
